A study of Mus musculus with 18 samples.

Results

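Cathepsins are the proteases that do much of the protein digestion in lysosomes. The expression of 10 cathepsin genes, *Ctsa*, *Ctsb*, *Ctsc*, *Ctsd*, *Ctse*, *Ctsh*, *Ctsk*, *Ctsl*, *Ctss* and *Ctsz*, was examined among the 20298 genes measured, and the members were matched by gene symbol. RNA was sequenced from 18 libraries of C57BL/6 mouse monocytes, with 3 libraries in each of 6 groups. WT and DKI monocytes were either untreated (day 0) or kept in culture for 3 or 6 days with GM-CSF at 20 ng/mL, after which they are called monocyte-derived cells (MDCs). GM-CSF is a cytokine that turns monocytes into dendritic cells (moDCs) and macrophages through the transcription factor STAT5. DKI mice carry knockin changes in the N-domains of both *Stat5a* and *Stat5b*, which let STAT5 dimers form but not tetramers, and the changes are in the germline, so that they are not limited to monocytes. No group was cultured without GM-CSF, so that time in culture and GM-CSF cannot be told apart. The monocytes were enriched by negative selection, and the labels do not say how many mice gave rise to a library, so that p-values measure the spread between these libraries.

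Liver stands as the tissue in the labels, but the series design and the study's methods give bone marrow. Of 6 hepatocyte genes, *Alb*, *Ttr* and *Serpina1a* were listed at 0 in all 18 libraries, *Apoa1* and *Fgb* were at most 0.047 RPKM, and *Trf*, which macrophages also express, was between 34.3 and 779 RPKM. The monocyte gene *Ly6c2* was between 953 and 1762 RPKM on day 0. Levels are given as RPKM, mapped reads scaled to gene length and library depth, so that genes can be compared per length. The depth behind the RPKM values was between 29.5 and 43.2 M reads per library (median 36.4 M). It matched the sum of reads recovered on genes, so that the total of mapped reads is not known here. The fewest reads on any member in any library were 88, for *Ctse* and for *Ctsk*, and the other members had more. In bulk RNA, fewer cells of a type and less RNA per cell cannot be told apart.

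Most cathepsins are made as inactive precursors, carried to endosomes and lysosomes by mannose 6-phosphate receptors, and activated there by acid. The papain-like cysteine cathepsins (*Ctsb*, *Ctsc*, *Ctsh*, *Ctsk*, *Ctsl*, *Ctss*, *Ctsz*) are held in check by cystatins, whereas *Ctsd* and *Ctse* are aspartic proteases and *Ctsa* is a serine carboxypeptidase. In macrophages they digest material taken up by phagocytosis, and in dendritic cells, where proteolysis is milder, *Ctss* cuts the invariant chain so that MHC class II can bind peptides.

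Many lysosomal genes are switched on by TFEB, TFE3 and MITF, which bind E-boxes with the core CACGTG, while STAT5 binds the GAS motif TTCNNNGAA and the myeloid factor PU.1 binds sites with GAGGAA. These motifs were searched on both strands in the 250 bases before the annotated starts, which RefSeq sequences (GRCm38.p6) gave for 7 of the 10 genes. No entry was found for *Ctsb*, *Ctse* and *Ctsh*. The E-box was present for 3 of the 7 genes, *Ctsa*, *Ctsd* and *Ctsl*. These are 3 of 8 promoters, since *Ctsa* has another one, at the start of the annotated gene, without an E-box, and the share among 32851 promoters of all genes was 6.02%. The GAS motif was present for *Ctsc* only of the 7, and in 7.02% of all promoters, and GAGGAA was present for *Ctsc*, *Ctsk* and *Ctss*, and in 23.3%. The longer CLEAR element, 10 bases that contain the core, was in none of the 7 and in 0.24% of all promoters. The E-boxes are shown first, with CACGTG in capitals, and the GAS motif of *Ctsc* follows, with its 9 bases in capitals.
*Ctsa*, chr2:164833749-164833778, plus strand, E-box at −12 from a start site within the annotated gene: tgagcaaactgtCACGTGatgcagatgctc
*Ctsd*, chr7:142388048-142388077, minus strand, E-box at −245 from the start site: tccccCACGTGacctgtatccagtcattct
*Ctsd*, chr7:142387908-142387937, minus strand, E-box at −98 from the start site: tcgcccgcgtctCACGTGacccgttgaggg
*Ctsl*, chr13:64370739-64370768, minus strand, E-box at −236 from a start site within the annotated gene: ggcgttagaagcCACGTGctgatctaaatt
*Ctsc*, chr7:88277839-88277867, plus strand, GAS motif at −236 from a start site within the annotated gene: agctttggcgTTCCTTGAAaggcagaggt
The windows of *Ctsa* and *Ctsl* and the *Ctsd* window nearer to the start overlap an exon of at least 1 GENCODE transcript of the same gene, and the other windows overlap no annotated exon. *Ctsk* and *Ctss* are neighbours on chromosome 3, with 17399 bases between the end of *Ctsk* and the start of *Ctss*, and their upstream sequences hold no E-box. These upstream sequences are shown with GAGGAA, or its reverse complement TTCCTC, in capitals.
*Ctsk*, chr3:95498960-95499209, plus strand: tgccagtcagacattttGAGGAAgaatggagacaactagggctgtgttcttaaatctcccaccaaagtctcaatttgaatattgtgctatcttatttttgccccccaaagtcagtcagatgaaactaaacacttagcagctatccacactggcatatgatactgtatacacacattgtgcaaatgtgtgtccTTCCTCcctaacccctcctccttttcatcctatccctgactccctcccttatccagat
*Ctss*, chr3:95526536-95526785, plus strand: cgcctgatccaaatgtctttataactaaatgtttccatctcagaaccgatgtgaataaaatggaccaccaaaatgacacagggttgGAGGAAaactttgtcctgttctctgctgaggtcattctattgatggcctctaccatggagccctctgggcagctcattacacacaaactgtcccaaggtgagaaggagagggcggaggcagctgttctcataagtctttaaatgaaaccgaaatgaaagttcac
A match describes these letters only, and binding was not measured. Any part of these motifs in the levels below was not tested.

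DKI MDCs devoted a larger share of their transcripts to cathepsins than WT MDCs. The summed RPKM of the 10 genes was between 2498 and 2861 in WT and between 2565 and 2830 in DKI monocytes on day 0. On day 3 it was 3791, 4492 and 5677 RPKM in WT and 15602, 10639 and 11756 RPKM in DKI MDCs. On day 6 it was 5020, 6977 and 4586 RPKM in WT and 21452, 13639 and 20031 RPKM in DKI. The genotypes overlapped on day 0 and did not overlap on days 3 and 6. As a share of all RPKM in a library, the 10 genes took 0.621% to 0.753% in both genotypes on day 0, at most 1.65% in WT MDCs, and between 2.58% and 4.96% in DKI MDCs.

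**Figure D1:**
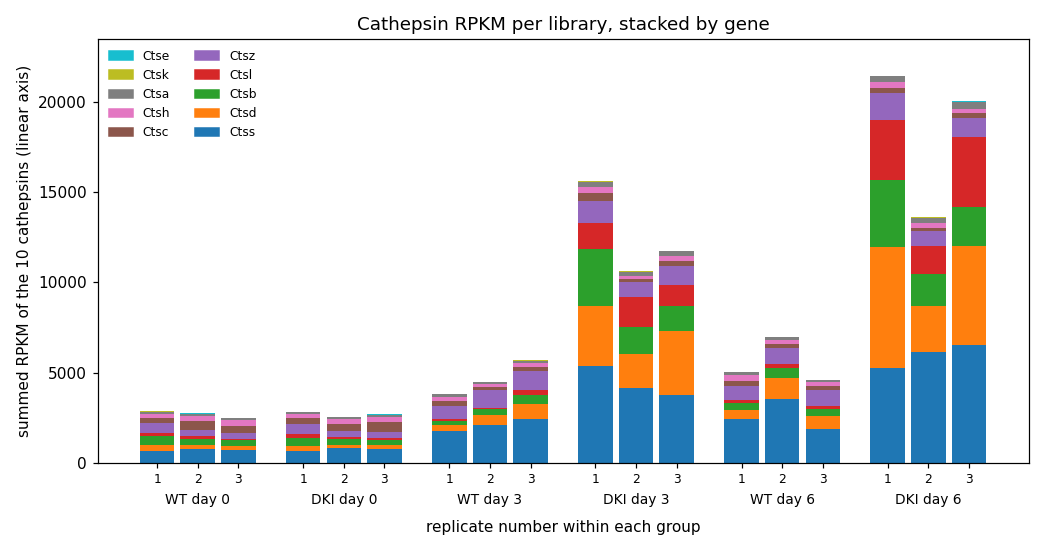
Summed RPKM (linear axis from 0) of the 10 cathepsins in each of the 18 libraries, with bars stacked by gene and grouped by genotype and day. The 6 DKI MDC libraries reach 10639 to 21452 RPKM, all above the 6 WT MDC libraries (3791 to 6977 RPKM).

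The rank order of the genes also differed. *Ctss* had the highest mean in all 6 groups. In WT MDCs it made up 41.1% to 50.8% of the cathepsin sum and was followed by *Ctsz* (911 ± 169 RPKM on day 3, SD, n = 3) and *Ctsd* (566 ± 259 RPKM). In DKI MDCs on day 3 *Ctss* (4407 ± 839 RPKM) was followed by *Ctsd* (2942 ± 882 RPKM), *Ctsb* (2013 ± 980 RPKM) and *Ctsl* (1414 ± 245 RPKM), whose ranges overlapped for *Ctsd* and *Ctsb* and for *Ctsb* and *Ctsl*. On day 6 *Ctsl* (2908 ± 1234 RPKM) came before *Ctsb* (2536 ± 1020.2 RPKM) in the order of DKI means, with overlapping ranges, and *Ctsd* exceeded *Ctss* in DKI replicate 1 (6725 against 5260 RPKM). The WT ranges of *Ctsz* and *Ctsd* also overlapped on both days. *Ctsl* contributed at most 4.85% of the sum in any WT MDC library and at least 9.09% in every DKI MDC library, whereas the lowest levels on all 3 days belonged to *Ctsk* and *Ctse* in both genotypes.

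**Figure D2:**
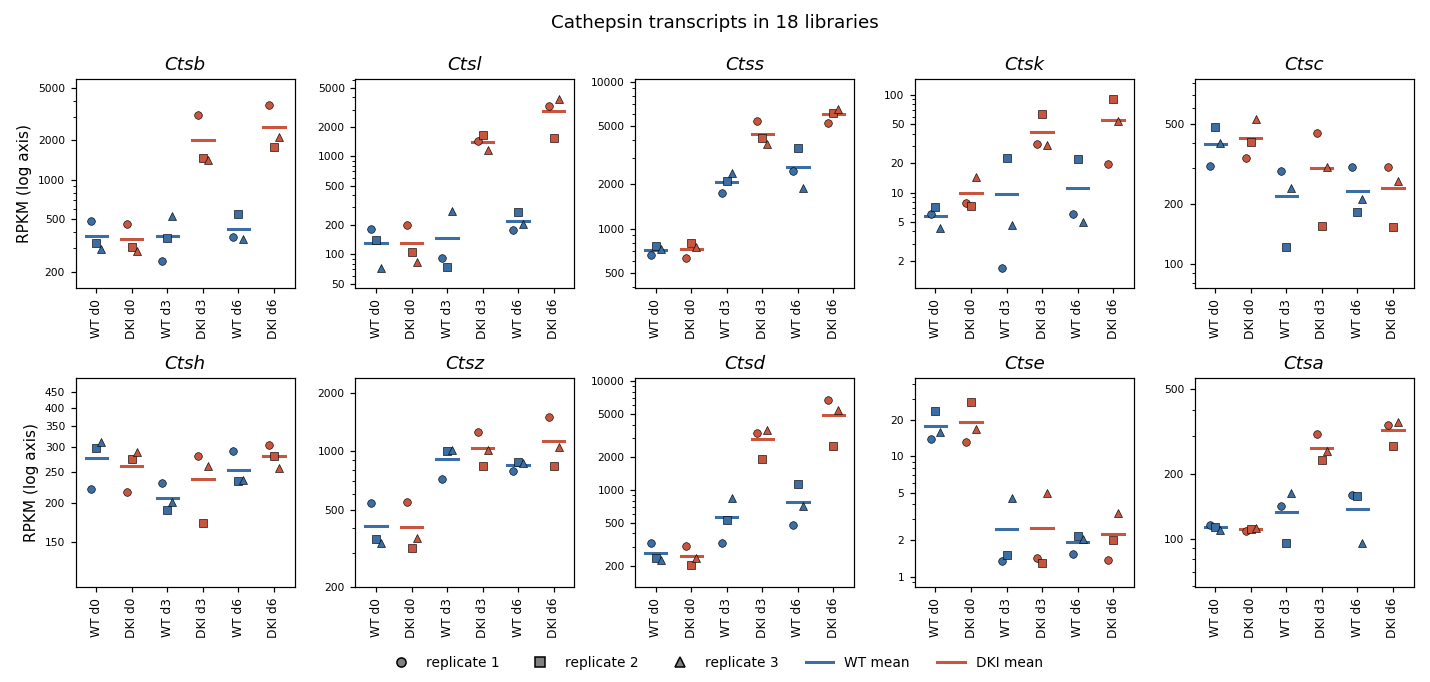
RPKM (log axis, a separate range for each gene) of each cathepsin by genotype and day, with each library as a point shaped by its replicate number and the group mean as a line. DKI and WT points overlap on day 0 for every gene but *Ctsk*, and for *Ctsb*, *Ctsl*, *Ctss*, *Ctsd* and *Ctsa* all DKI points lie above all WT points on days 3 and 6.

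On day 0 none of the 10 cathepsins was called different between DKI and WT monocytes by limma, where 0.0% of the 9179 genes tested were called (adjusted p under 0.05 by the Benjamini-Hochberg method over all tested genes and a fold change above 1.5). Across all genes, 44 had an unadjusted p under 0.05 (352 with the replicate number as a block, which called none), and limma voom on read counts called none. The log2 fold changes of 9 members were between −0.08 and 0.09. *Ctsk* was 5.97, 7.10 and 4.37 RPKM in WT and 7.76, 7.30 and 14.5 RPKM in DKI monocytes. All its DKI values were higher, as for 0.719% of the genes, with a log2 fold change of 0.63 (95% interval −0.08 to 1.34) that was not called.

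After 3 days of GM-CSF, DKI MDCs had higher levels of 3 of the 10 cathepsins than WT MDCs, *Ctsl*, *Ctsb* and *Ctsd*, against 3.21% of the 9740 genes tested. After 6 days 4 were higher, these and *Ctsa*, against 2.72% of the 9842 genes tested. These calls leave out the pairing by replicate number. With that number as a block, *Ctsd* and *Ctsl* were called higher on day 3, where 263 of the 9740 genes were. On day 6 *Ctsb*, *Ctsk* and *Ctsl* were called higher with the block, where 285 of the 9842 genes were. No cathepsin was called lower on day 3, where 4.21% of genes were, or on day 6, where 4.82% were. The estimates of all 10 were above 0 on both days, with a median log2 fold change of 1.04 on day 3 and 1.24 on day 6, where the medians of all tested genes were −0.11 and −0.17. The signs of *Ctsc*, *Ctse* and *Ctsz*, which were not called, depended on the setting. With quantile normalization, the estimate of *Ctsz* on day 3 was −0.02, and over all alternatives the lowest estimates were −0.13 for *Ctsz* and −0.43 for *Ctse* on day 3, and −0.19 for *Ctsc* and −0.12 for *Ctse* on day 6. Centring each library on its median moved the median of all genes on day 6 from −0.17 to −0.02 and the calls among all genes from 268 higher and 474 lower to 323 higher and 285 lower, and *Ctss* was then called too.

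**Figure D3:**
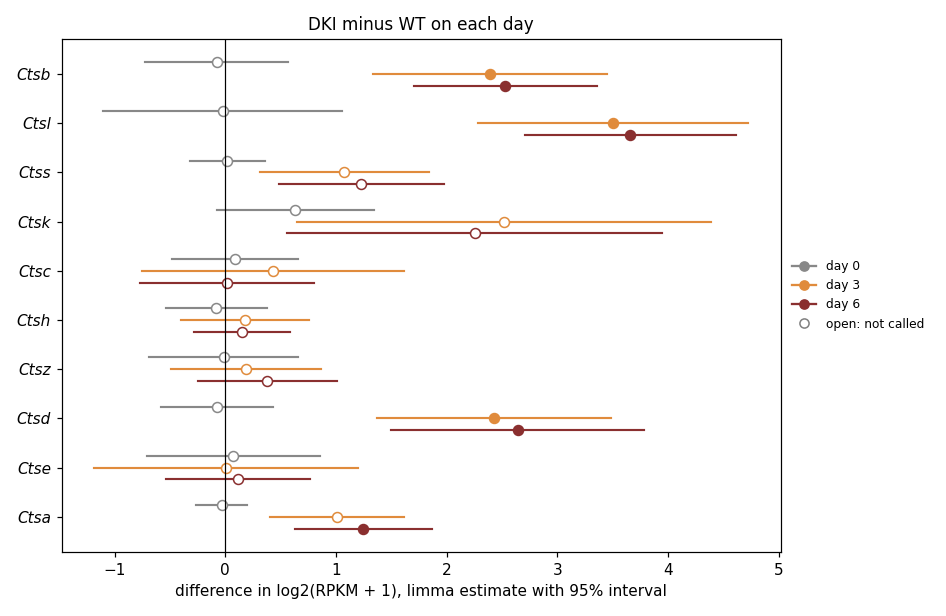
Difference in log2(RPKM + 1) between DKI and WT on days 0, 3 and 6 for each cathepsin, as the limma estimate with its 95% interval, where filled points passed the adjusted p and fold limits and open points did not. All day 0 points lie between −0.08 and 0.63, and *Ctsl* is farthest to the right on day 3 (3.50) and day 6 (3.66).

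*Ctsl* encodes a cysteine endopeptidase of broad lysosomal use. On day 3 it was 91.0, 73.1 and 276 RPKM in WT and 1419, 1656 and 1167 RPKM in DKI MDCs. On day 6 it was 175, 271 and 203 RPKM in WT and 3307, 1523 and 3894 RPKM in DKI MDCs. The lowest DKI value exceeded the highest WT value on both days. By limma, *Ctsl* differed by 3.50 on the log2 scale (standard error 0.51, adjusted p = 0.0165) on day 3 and by 3.66 (standard error 0.40, adjusted p = 0.00978) on day 6, and the ratios of the group means were 9.65 and 13.4. It was the cathepsin that was called on both days also with the replicate number as a block (adjusted p = 0.0412 and 0.0293).

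*Ctsb*, a cysteine protease that can cut within proteins and from their carboxyl end, was 239.8, 361 and 527 RPKM in WT and 3145, 1466 and 1429 RPKM in DKI MDCs on day 3. On day 6 it was 368, 551 and 357 RPKM in WT and 3695, 1775 and 2138 RPKM in DKI MDCs. The groups did not overlap, and replicate 1 was the highest DKI library on both days. *Ctsb* thus differed by 2.39 on the log2 scale (standard error 0.44, adjusted p = 0.0292) on day 3 and by 2.53 (standard error 0.35, adjusted p = 0.0183) on day 6. With the replicate block, the adjusted p was 0.0742 on day 3, so that the call was lost, and 0.0385 on day 6.

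*Ctsd*, the main aspartic protease of lysosomes, was 327, 530.5 and 842 RPKM in WT and 3358, 1929 and 3540 RPKM in DKI MDCs on day 3. On day 6 it was 478, 1133 and 718 RPKM in WT and 6725, 2567 and 5484 RPKM in DKI MDCs. Again no WT value reached the DKI range, and in DKI MDCs replicate 2 was the lowest on both days. On the log2 scale *Ctsd* differed by 2.43 on day 3 (standard error 0.44, adjusted p = 0.0281) and by 2.64 on day 6 (standard error 0.48, adjusted p = 0.0303). The replicate block gave adjusted p-values of 0.0488 and 0.0617, so that the day 6 call was lost.

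*Ctsa* encodes a carboxypeptidase that also protects the lysosomal enzymes β-galactosidase (*Glb1*) and neuraminidase (*Neu1*). It was 143, 95.5 and 163 RPKM in WT and 306, 233 and 257 RPKM in DKI MDCs on day 3, and 159, 158 and 94.99 RPKM in WT and 340.5, 271 and 351 RPKM in DKI MDCs on day 6. All DKI values were above all WT values. The difference of 1.01 on the log2 scale on day 3 (standard error 0.25, adjusted p = 0.0639) was not called, and that of 1.25 on day 6 (standard error 0.26, adjusted p = 0.0409) was called, but not with the block (adjusted p = 0.0618) or by voom (adjusted p = 0.0522). Its partners *Glb1* and *Neu1* were not called on either day (log2 fold changes of 0.30 and 0.58 on day 3 and 0.20 and 0.63 on day 6).

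*Ctss* and *Ctsk* had higher means in DKI MDCs but did not pass the test. *Ctss* was 1747, 2100 and 2401 RPKM in WT and 5350, 4126 and 3744 RPKM in DKI MDCs on day 3, and 2449, 3546 and 1885 RPKM in WT and 5260, 6133 and 6532 RPKM in DKI MDCs on day 6. Its groups did not overlap, with log2 fold changes of 1.08 (95% interval 0.31 to 1.84, adjusted p = 0.0973) and 1.23 (0.48 to 1.97, adjusted p = 0.0623). *Ctsk*, the collagen-cutting cathepsin known from osteoclasts, was far less abundant, at 1.68, 22.4 and 4.64 RPKM in WT and 31.1, 64.2 and 30.8 RPKM in DKI MDCs on day 3. On day 6 it was 5.98, 22.1 and 4.99 RPKM in WT and 19.4, 91.5 and 54.4 RPKM in DKI MDCs, and replicate 2 was the highest library in every one of these 4 groups. Its log2 fold change was 2.52 (adjusted p = 0.107) on day 3 and 2.25 (adjusted p = 0.0959) on day 6. The block moved the adjusted p to 0.0502 on day 3 and to 0.0419 on day 6, where *Ctsk* was then called.

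The groups did not overlap for 6 of the 10 cathepsins on day 3, where this held for 13.4% of all genes tested in the same direction, and for 5 on day 6, where it held for 10.6%. The other 4 members overlapped between genotypes on both days. *Ctsc*, the dipeptidyl peptidase that activates granule serine proteases, ranged from 121 to 305 RPKM in the 6 WT and from 152 to 449 RPKM in the 6 DKI MDC libraries. *Ctsh*, an aminopeptidase, ranged from 189 to 292 RPKM in WT and from 173 to 305 RPKM in DKI, and *Ctsz*, a carboxypeptidase, ranged from 717 to 1019 RPKM in WT and from 836 to 1493 RPKM in DKI. *Ctse*, an aspartic protease of endosomes, was at most 4.55 RPKM in WT and 4.92 RPKM in DKI. Their log2 fold changes were between 0.01 and 0.43 on day 3 and between 0.01 and 0.38 on day 6, and the 95% intervals on day 6 ran from −0.77 to 0.80 for *Ctsc*, from −0.29 to 0.58 for *Ctsh*, from −0.25 to 1.01 for *Ctsz* and from −0.54 to 0.77 for *Ctse*.

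In both genotypes the library names of replicate 1 on days 3 and 6 hold a different number from the one that all other names share. The labels do not say what this number marks, and the differing names belong to 1 library per group, so that they give no value of their own. Among the libraries with the shared number, 2 per group, the log2 fold change on day 3 was 1.73 for *Ctsb* (adjusted p = 0.0497), 1.97 for *Ctsd* (adjusted p = 0.0899) and 3.28 for *Ctsl* (adjusted p = 0.0837). On day 6 it was 1.33 for *Ctsa*, 2.13 for *Ctsb*, 2.06 for *Ctsd* and 3.37 for *Ctsl*, with adjusted p between 0.119 and 0.202. DKI replicate 1 of day 3 also stood apart in the monocyte gene *Ly6c2*, with 775 RPKM where the other DKI libraries of that day had 49.5 and 73.8 RPKM and the WT libraries at most 39.8 RPKM. Without that library *Ctsb*, *Ctsd* and *Ctsl* were still called on day 3, with log2 fold changes of 2.02, 2.31 and 3.49. Leaving out any other library of day 3 cost at least 1 of the 3 calls: none was called without WT replicate 1, *Ctsk* alone without WT replicate 2, *Ctsl* alone without WT replicate 3 or DKI replicate 3, and *Ctsd* and *Ctsl* without DKI replicate 2. On day 6 *Ctsl* was called without any single library, and it was the only one called without WT replicate 1, WT replicate 3 or DKI replicate 3. Without DKI replicate 1 of day 6 *Ctsb* and *Ctsl* were called, and without WT replicate 2 *Ctss* was called in place of *Ctsa*.

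The genotype difference of *Ctsb*, *Ctsd* and *Ctsl* changed between day 0 and day 3. The change in their log2 fold change was 2.46 for *Ctsb* (standard error 0.53, adjusted p = 0.0355 from the interaction term in limma), 2.50 for *Ctsd* (standard error 0.50, adjusted p = 0.0240) and 3.53 for *Ctsl* (standard error 0.72, adjusted p = 0.0282). These 3 of 10 compare with 1.2% of the 10212 genes tested called in the same direction and 1.7% called in the other, in which no cathepsin was called. By voom on read counts only *Ctsd* was called. The changes for *Ctsa* (1.04, adjusted p = 0.0694), *Ctss* (1.06, adjusted p = 0.0855) and *Ctsk* (1.89, adjusted p = 0.348) were not called. For the change in genotype difference between day 3 and day 6 no cathepsin was called, with 0.0% of 9985 genes called and 89 at an unadjusted p under 0.05, and the 95% intervals were wide (−1.37 to 1.68 for *Ctsl* and −2.84 to 2.31 for *Ctsk*).

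Each genotype was also followed from day 0 to day 3 of GM-CSF. In WT cells *Ctss*, *Ctsz* and *Ctsd* rose and *Ctse* fell, against 20.3% of the 9938 genes tested called higher and 22.8% called lower. In DKI cells *Ctsa*, *Ctsb*, *Ctsd*, *Ctsk*, *Ctsl*, *Ctss* and *Ctsz* rose and *Ctse* fell, against 13.1% of 9922 genes called higher and 21.1% called lower. Centring each library on its median turned the balance of all calls, from 2013 higher and 2270 lower to 2267 and 2000 in WT and from 1297 higher and 2097 lower to 1743 and 1622 in DKI, with the same cathepsins called. The median log2 fold change of the 10 genes was 0.04 in WT and 1.66 in DKI, beside −0.05 and −0.16 over all genes tested. The WT share is thus near the background, and the genotypes were compared by the interaction terms above and not by these counts.

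**Figure D4:**
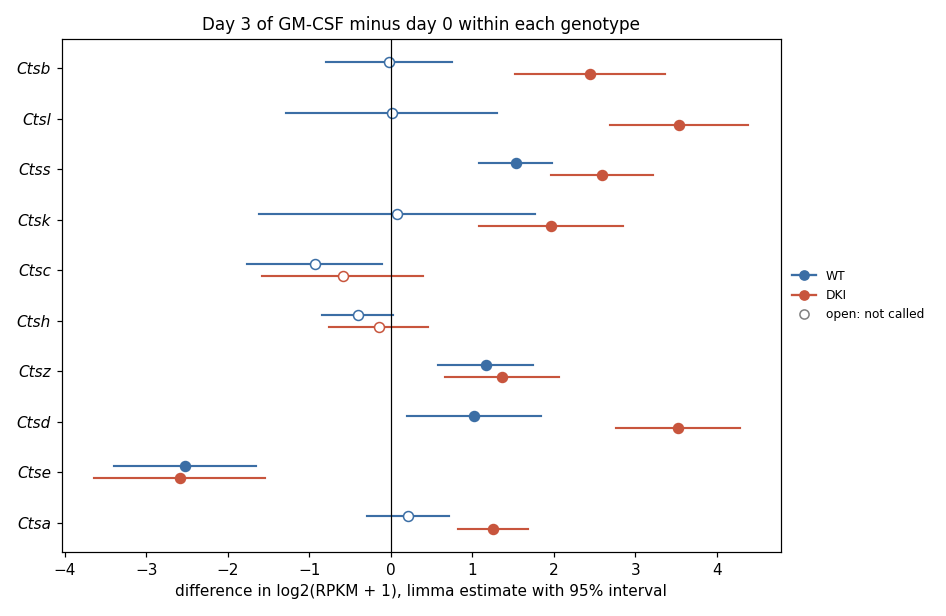
Change in log2(RPKM + 1) from day 0 to day 3 of GM-CSF in WT and DKI cells for each cathepsin, as the limma estimate with its 95% interval, where filled points were called and open points were not. *Ctsb* and *Ctsl* lie at −0.02 and 0.01 in WT and at 2.44 and 3.54 in DKI, and *Ctse* lies at −2.53 and −2.59.

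*Ctss* rose in both genotypes, from 663, 762 and 723 RPKM in WT and 631, 801 and 749 RPKM in DKI monocytes on day 0 to the day 3 levels given above. The log2 fold change was 1.53 in WT (adjusted p = 0.00102) and 2.59 in DKI (adjusted p = 0.00179). Without the filter on low genes *Ctss* was called in neither genotype (adjusted p = 0.0619 and 0.196), and with all-zero genes left out as well it was called in WT but not in DKI. *Ctsz* rose by 1.16 in WT (adjusted p = 0.0085) and by 1.36 in DKI (adjusted p = 0.0148, with the DKI call lost without replicate 2 or 3 of day 0), and both calls were lost without the filter, though not that in WT when all-zero genes were left out as well. *Ctsd* rose by 1.02 in WT (adjusted p = 0.0469) and by 3.52 in DKI (adjusted p = 0.00119). With the replicate block the WT call of *Ctsd* was lost (adjusted p = 0.0929), and it was also lost without replicate 2 or 3 of day 0 or of day 3, with quantile normalization, without the filter and in the fit of all 18 libraries.

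*Ctsb* and *Ctsl* were not called in WT cells. Their log2 fold changes there were −0.02 (95% interval −0.79 to 0.75) and 0.01 (−1.28 to 1.30). In DKI cells *Ctsb* went from 463, 309 and 286 RPKM and *Ctsl* from 198, 104 and 83.0 RPKM on day 0 to the day 3 levels given above, and both were called (2.44, adjusted p = 0.00594, and 3.54, adjusted p = 0.00173). *Ctsa* (1.25, adjusted p = 0.00451) and *Ctsk* (1.96, adjusted p = 0.0099) were likewise called in DKI cells, whereas their WT estimates were 0.21 and 0.07.

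*Ctse* fell in both genotypes. It was 13.9, 23.9 and 15.8 RPKM in WT and 13.1, 28.1 and 16.7 RPKM in DKI monocytes on day 0, and 1.35, 1.504 and 4.55 RPKM in WT and 1.43, 1.31 and 4.92 RPKM in DKI MDCs on day 3. The log2 fold change was −2.53 in WT (adjusted p = 0.00196) and −2.59 in DKI (adjusted p = 0.00709). Markers of other marrow cells moved with it. The summed level of 5 eosinophil genes went from between 215 and 595 RPKM to between 1.89 and 31.3 RPKM in WT and from between 149 and 429 RPKM to between 3.03 and 29.8 RPKM in DKI, and that of the 4 erythroid genes listed went from between 3.68 and 31.1 RPKM over both genotypes to 0 in all 6 libraries of day 3. The sum of the 8 neutrophil and granulocyte precursor genes went from between 1545 and 1760 RPKM to between 109 and 765 RPKM in WT (5 called lower) and from between 1322 and 1747 RPKM to between 796 and 1419 RPKM in DKI (4 called lower and 1 higher). The summed level of 6 B cell genes went from between 3.04 and 13.99 RPKM to between 0.364 and 0.473 RPKM in WT, where the 1 gene tested was called lower, and from between 3.36 and 12.03 RPKM to between 1.26 and 7.10 RPKM in DKI, where that gene was not called. The part of these markers in the fall of *Ctse* was not tested. *Ctsc* and *Ctsh* were called in neither genotype, although *Ctsc* was called lower in WT without replicate 1 of day 3 and with quantile normalization.

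From day 3 to day 6 no cathepsin was called in either genotype, where 0.0% of the genes were called (722 of 9613 genes in WT and 93 of 9540 in DKI had an unadjusted p under 0.05). The largest estimates were those of *Ctsl*, at 0.79 in WT (95% interval −0.40 to 1.98) and 0.95 in DKI (−0.10 to 1.99).

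Of 3 other cathepsins tested in DKI against WT MDCs, *Ctso* was higher on both days. Its day 3 values were 10.9, 7.94 and 10.5 RPKM for WT against 26.6, 17.6 and 17.3 RPKM for DKI, with a log2 fold change of 0.98 (adjusted p = 0.0478) and of 1.07 on day 6 (adjusted p = 0.0407, with a call that the block ended). *Ctsg*, a serine protease of neutrophil granules, and *Ctsf* were not called, and *Ctsw* was at most 0.345 RPKM in any library and was not tested. *Ctsg* fell from day 0 to day 3 in WT (−5.88) and in DKI (−4.18), as did its granule partners *Elane* (−6.54 and −4.55) and *Prtn3* (−6.61 and −4.09), all of which are activated by *Ctsc*.

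The most abundant cystatin gene of WT MDCs differed in the other direction. *Cst3*, which encodes the secreted inhibitor cystatin C, was 3593, 3344 and 2611 RPKM in WT and 565, 603 and 600 RPKM in DKI MDCs on day 3, and the values of the WT libraries were all higher. The log2 fold change was −2.42 on day 3 (standard error 0.25, adjusted p = 0.00692) and −1.76 on day 6 (standard error 0.36, adjusted p = 0.0403), where the block ended the call (adjusted p = 0.0714). Of the 6 cystatin and stefin genes tested on day 3 and the 7 on day 6, no other was called. *Cstb*, an intracellular inhibitor of cathepsins B and L, averaged 419 ± 114 RPKM for WT against 653 ± 63.2 RPKM for DKI on day 3 (SD, n = 3), a log2 fold change of 0.68 (adjusted p = 0.182).

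Among the genes that work with cathepsins on the invariant chain, *Lgmn*, an asparagine-specific protease that also processes cathepsin precursors, was called higher in DKI MDCs. It was 72.7, 116 and 223 RPKM in WT and 1814, 690.5 and 519 RPKM in DKI on day 3, with a log2 fold change of 2.80 (adjusted p = 0.0415) and of 2.27 on day 6 (adjusted p = 0.0303). The block ended both calls (adjusted p = 0.0941 and 0.0533). The invariant chain gene *Cd74*, *H2-DMa*, *H2-DMb1* and *Ifi30* were not called on either day (log2 fold changes of −1.84, −1.58, −1.43 and −0.27 on day 3). The study, which used edgeR, lists *Cd74* among the genes that depend on STAT5 tetramers. The summed level of these genes and *Lgmn* was at least 12923 RPKM in WT and at most 8315 RPKM in DKI on day 3. On day 6 it was at least 11913 RPKM in WT and at most 9783 RPKM in DKI.

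The other lysosomal genes were mostly not called. Of 27 other lysosomal hydrolases tested, 1 was called higher and 1 lower in DKI MDCs on each day, near the shares of all genes. Those called higher were *Tpp1* on day 3 (1.26, adjusted p = 0.0394) and *Galns* on day 6 (1.09, adjusted p = 0.0426). *Prcp* was called lower on day 6 (−0.99, adjusted p = 0.0401), and the gene called lower on day 3 is not reported here. With the block *Galns* alone was called of these. The median log2 fold change of the 27 was 0.48 on day 3 and 0.47 on day 6, where those of all tested genes were −0.11 and −0.17. The estimates of 22 of the 27 were above 0 on day 3 and of 23 on day 6. Their summed level was at most 2270 RPKM in WT and at least 2497 RPKM in DKI on day 3. On day 6 it was at most 2302 RPKM in WT and at least 2848 RPKM in DKI. Of 11 genes of lysosomal delivery and biogenesis, 10 had estimates above 0 on day 3 and all 11 on day 6. Among them the membrane protein gene *Lamp1* was called higher on day 3 (1.92, adjusted p = 0.0308) and day 6 (1.47, adjusted p = 0.0453), and the block ended both calls (adjusted p = 0.0542 and 0.0574). *Mitf*, one of the E-box binding factors, was called on day 6 (1.52, adjusted p = 0.0472). On day 3 its estimate was 1.21 (adjusted p = 0.0978), and it was called when the block was added (adjusted p = 0.0266). The log2 fold change of *Tfeb* was 0.12 on day 3 and 0.33 on day 6, and it was not called.

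Markers of cell state moved with the cathepsins. Of 6 macrophage genes, *Mrc1* (4.45), *Pf4* (4.20), *Stab1* (5.33) and *Mertk* (2.65) were higher in DKI MDCs on day 3, and the summed level of the 6 was between 259 and 632 RPKM in WT and between 1762 and 3800 RPKM in DKI. On day 6 the same genes except *Mertk* were called, and the sums were between 313 and 642 RPKM in WT and between 1314 and 4211 RPKM in DKI. With the block, 4 of the 6 macrophage genes were called on each day. All 6 moDC genes were lower on both days, with *Ccl17* (−7.13), *Itgae* (−4.98) and *Cd209a* (−4.93) farthest on day 3 (the block ended the call of *Cd209a* on both days), and their sum on day 3 was between 4866 and 8988 RPKM in WT and between 90.8 and 113 RPKM in DKI. The day 6 sum was between 3781 and 10195 RPKM in WT and between 114 and 301 RPKM in DKI. The summed level of 8 neutrophil and granulocyte precursor genes was between 109 and 765 RPKM in WT and between 796 and 1419 RPKM in DKI on day 3, with none of the 8 called (with the block, *Mmp8* was called). All 8 estimates were above 0, with a median log2 fold change of 1.86. The summed level of 5 monocyte genes was between 396 and 617 RPKM in WT and between 619.8 and 1764 RPKM in DKI on day 3, with none of the 4 tested called. On day 6 the genotypes overlapped in both sums, at 103 to 500.3 RPKM in WT and 492 to 884 RPKM in DKI for the neutrophil genes and at 268 to 597 RPKM and 477 to 1003 RPKM for the monocyte genes. The low sums of the B cell genes did not overlap, at most 0.78 RPKM in WT and at least 1.21 RPKM in DKI MDCs. Of 6 osteoclast genes tested none was called on either day (with the block, *Acp5* and *Atp6v0d2* were called higher on day 3, and *Atp6v0d2* higher and *Dcstamp* lower on day 6), and *Calcr*, the calcitonin receptor, was listed at 0 in all 12 MDC libraries. The part of each of these in the cathepsin levels was not tested.

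Likeness of pattern was described by Pearson's r of log2(RPKM + 1) over the 18 libraries among 10417 genes, where the points share their groups. The gene most like *Ctsd* was *Tpp1*, a lysosomal tripeptidyl peptidase (r = 0.989), and that most like *Ctss* was *Mfsd9* (r = 0.980). For *Ctsl* it was *C77080* (r = 0.974), for *Ctsb* *Mmp27* (r = 0.973), for *Ctsz* *Gpr107* (r = 0.971), for *Ctsa* *Pou6f1* (r = 0.951) and for *Ctsk* *Myo5a* (r = 0.918). For *Ctse* it was the immunoglobulin segment *Igkv14-111* (r = 0.971), for *Ctsc* *Ly86* (r = 0.904) and for *Ctsh* *Bphl* (r = 0.791), the weakest of the 10.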

How the data were processed

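The authors deposited RPKM values for 18 libraries. According to the study's methods, reads from 1 end of each fragment were mapped to mm10 with Subread and assigned to RefSeq genes with featureCounts, with no further scaling between libraries stated. Versions and strandedness were not given in the sources used here. In GENCODE, exons of *Ctsa* share bases with *Neurl2* and *Pltp*, those of *Ctsb* with *Fdft1*, those of *Ctsd* and *Ctsl* with predicted genes and those of *Ctsz* with *Nelfcd*, so that some of their reads cannot be assigned with certainty. All 18 columns of values were used, and no 2 libraries held identical values (r within groups 0.963 to 0.989). Depth was recovered from the value of 1 read in 1378 single-exon receptor genes, and all values of the 10417 genes above the filter then came out as whole reads (100% within 0.02 reads).

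Levels were analysed as log2(RPKM + 1), which understates the change of low genes, in R 4.3.3 with limma 3.58.1 (lmFit, eBayes with trend), keeping the genes whose mean exceeded 2 RPKM in either group. Each comparison used its own libraries, and the interaction terms used 12. Genes were called at an adjusted p under 0.05 (Benjamini-Hochberg, all genes) with a difference of more than 1.5-fold. These are also the authors' limits, which they applied in edgeR, a test that needs counts. Intervals are 95% and unadjusted. The members and gene lists were chosen with earlier results of these data known. The genes named by rule are all members, the genes of each list called in DKI against WT (the 3 farthest in each direction where over 5 were called), markers listed at 0, and the gene most like each member, except that 1 result of the hydrolase list is not reported here. *Cstb*, *Tfeb*, *Glb1*, *Neu1*, *Cd74*, *H2-DMa*, *H2-DMb1*, *Ifi30*, *Ctsf*, *Ctsg*, *Ctsw*, *Elane*, *Prtn3*, the hepatocyte genes, *Ly6c2* and the genes called only with the block were named outside this rule, after their values were seen. Python 3.11.15, numpy 2.4.6, pandas 2.3.3 and matplotlib 3.10.9 were used, and the fit was tested on simulated data.

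The replicate numbers come from the labels. Deviations of same-numbered WT and DKI libraries from their group means correlated between 0.686 and 0.866 on day 0, between 0.163 and 0.369 on day 3 and between 0.338 and 0.413 on day 6, so the numbers were taken to pair the libraries. The main fit did not include this pairing, so that its calls, intervals and shares are unpaired. The replicate block gives the paired calls. Day 3 and day 0 libraries of the same number did not deviate together (−0.208 to 0.180), whereas those of day 6 and day 3 did (0.125 to 0.743). Alternatives were the replicate block, no filter, a pseudocount of 0.1, median centring, quantile normalization, a fit of all 18 libraries and leaving out each library. Another 3 were chosen after seeing the data: voom on recovered reads, no filter without all-zero genes, and the libraries whose names hold the shared number alone.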

Additional observations from a re-analysis of the deposited data

Results flagged for a closer look

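The effect of genotype differed between day 0 and day 3 for 3 cathepsins, by the interaction term in limma (12 libraries). The log2 fold change of DKI against WT was larger on day 3 by 2.46 for *Ctsb*, by 2.50 for *Ctsd* and by 3.53 for *Ctsl*. On day 0 the genotypes overlapped for each of them (−0.08, −0.08 and −0.02) and were higher in all 3 DKI libraries than in all 3 WT libraries on day 3. Without WT replicate 1 or 2 or DKI replicate 2 or 3 of day 0, none of these 3 interactions was called, nor was any without WT replicate 2 of day 3. Adjusted p-values were 0.0355, 0.0240 and 0.0282.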

How the results depend on the processing

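No called fold change of a cathepsin changed its direction under any alternative. The number of cathepsins called in DKI against WT on day 3 (3) was 0 without the filter, 1 without the filter and without all-zero genes, 6 in the fit of all 18 libraries, 1 among the libraries whose names share a number and 0 to 3 when each library was left out in turn (0 without WT replicate 1). On day 6 (4) it was 0, 1, 6 and 0 under the same alternatives and 1 to 4 when leaving out a library. For the interaction of day 3 with day 0 (3) it was 0, 0, 3 and 0, then 5 with quantile normalization, 1 with voom (3 by voom on each of days 3 and 6) and 0 to 4 when leaving out a library. From day 0 to day 3 it was 1 in WT (4) without the filter and 3 to 5 when leaving out a library, and in DKI (8) it was 6 without the filter and 7 to 8 when leaving out a library. With the replicate number as a block, it was 2 on day 3, 3 on day 6, 3 for the interaction, 3 in WT and 8 in DKI. The calls the block changed are given beside the genes, and it changed no other call of a cathepsin. Among all genes, the 723 calls of day 3 became 139 without the filter, 358 without all-zero genes, 1359 with all 18 libraries, 375 among those with the shared name number and as few as 197 without WT replicate 1. The 742 calls of day 6 became 38, 187, 1573 and 36, with 464 by voom and as few as 95 without DKI replicate 3. The 3394 calls of DKI cells from day 0 to day 3 became 2190 without the filter and 1980 without DKI replicate 2 of day 0, and the 297 of the interaction became 166 without the filter, 90 with voom and 123 without that library. The fit of all 18 libraries called 6 genes on day 0 and 16 in WT from day 3 to day 6, where the comparisons alone called 0. With 2 or 3 libraries per group, their number limits the precision, and counting error is largest for *Ctse* and *Ctsk*, with as few as 88 reads.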
